A study of Mus musculus with 6 samples.

Results

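Phosphofructokinase is the enzyme that commits sugar to glycolysis, and 10 of the 22753 genes counted in C2C12 cells are described here: Pfkp and its sister genes Pfkl and Pfkm, 6 further glycolytic enzyme genes (Hk1, Hk2, Aldoa, Gapdh, Pgk1 and Ldha), and Pitrm1, whose exons overlap those of Pfkp. They were chosen by gene name, with the counts of compound against DMSO already known: Pfkp was taken up for its rise in that comparison, Pitrm1 for its position and the others for their function. The compound against DMSO values of these 10 genes are therefore a description, with no test. C2C12 is an established line of mouse myoblasts, muscle precursor cells with the potential to become muscle or bone-forming cells. All cells were kept in Dulbecco's modified Eagle medium with fetal bovine serum. In 1 group, 3 samples had 1% DMSO, the solvent, for 2 days. In the other, 3 samples had 10 µM of a screening hit, a dimethylquinolinone bearing phenylimidazole, for the same 2 days. It is called the compound from here on, and no DMSO content is stated for its samples.

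Glycolysis turns glucose into pyruvate and gives ATP without oxygen. Hexokinases trap glucose in the cell, phosphofructokinase makes the committing step, aldolase splits the sugar, and the later enzymes harvest ATP before lactate dehydrogenase converts pyruvate to lactate. Phosphofructokinase works as a tetramer whose subunits come from a muscle gene (Pfkm), a liver gene (Pfkl) and a platelet gene (Pfkp). Pitrm1 encodes a peptidase of the mitochondrial matrix that degrades targeting peptides after import and has no part in glycolysis.

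Library totals in the deposited table were 566348 to 952813 counts in DMSO and 493406 to 542649 with the compound. DMSO replicate 3 stood apart: its counts differed from those of DMSO replicates 1 and 2 by 10.5 and 9.60 chi-square per degree of freedom, against 1.88 between those 2 libraries and 2.64 to 2.83 within the compound group. Of 9 myoblast markers, all had a count. Their summed level was 194 to 264 CPM (reads relative to library size, scaled by TMM, the trimmed mean of M-values) in DMSO and 284 to 351 CPM with the compound; of 5 tested, Des and Vim rose and Msc fell, where 18% of all tested genes were called in either direction. Des (60.8 to 120 CPM) and Vim (46.0 to 103 CPM) made up most of the higher sum. The myogenic factor genes Myod1 (14.8 to 5.69 CPM) and Myog (4.50 to 0.750 CPM), too low to test, were lower in every compound library than in any DMSO library. Of 6 muscle fibre markers, with 45 to 62 reads per library in sum, Myh3 and Tnnt3 were tested and not called, and Myh1 (1.74 to 12.1 CPM, not tested) was higher in every compound library. Of 5 osteoblast markers, Runx2 held 20 to 57 reads per library, Alpl 0 to 2, and Sp7, Bglap and Ibsp none; fibroblast markers had 1 to 7 in sum. Neuron markers were at 0, blood cell markers reached 1 count at most and adipocyte markers 2. Groups did not overlap in 14.7% of the 12548 genes with a count. Marker values, too, are counts filed under gene names, with the strand limit given in the next paragraph. They do not give the state of the cells. The part of the marker difference in the results below was not tested.

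Pfkp and Pitrm1 lie tail to tail on mouse chromosome 13. In the mm10 coordinates of the deposited table, Pfkp spans 6579768 to 6648777 on the minus strand and Pitrm1 spans 6548157 to 6580139 on the plus strand, so that 372 bp are shared. GENCODE M21 ends Pitrm1 376 bp further on, at 6580515, and the shared stretch is then 748 bp, all of it in exons of both genes and none of it coding. The last coding base is 6581463 in Pfkp and 6579740 in Pitrm1, so the overlap joins the untranslated 3′ ends. It makes up 5.58% of the exon length of Pfkp and 15.6% of that of Pitrm1. The labels call the libraries stranded but name a kit, TruSeq RNA v2, and the strand setting of the counting is not given in the sources used here. Reads of the 2 genes therefore cannot be told apart in the shared stretch. Had a stranded library been counted with the opposite setting, reads of Pitrm1 transcripts in that stretch would stand under Pfkp; this was not tested. Each value in this report, the markers included and Pfkp above all, is a count filed under a gene name. It may hold reads of a gene on the opposite strand. Apart from Pitrm1, the gene in the table nearest to Pfkp is Klf6, on the far side of Pitrm1 and 709375 bp from the 3′ end of Pfkp.

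**Figure D1:**
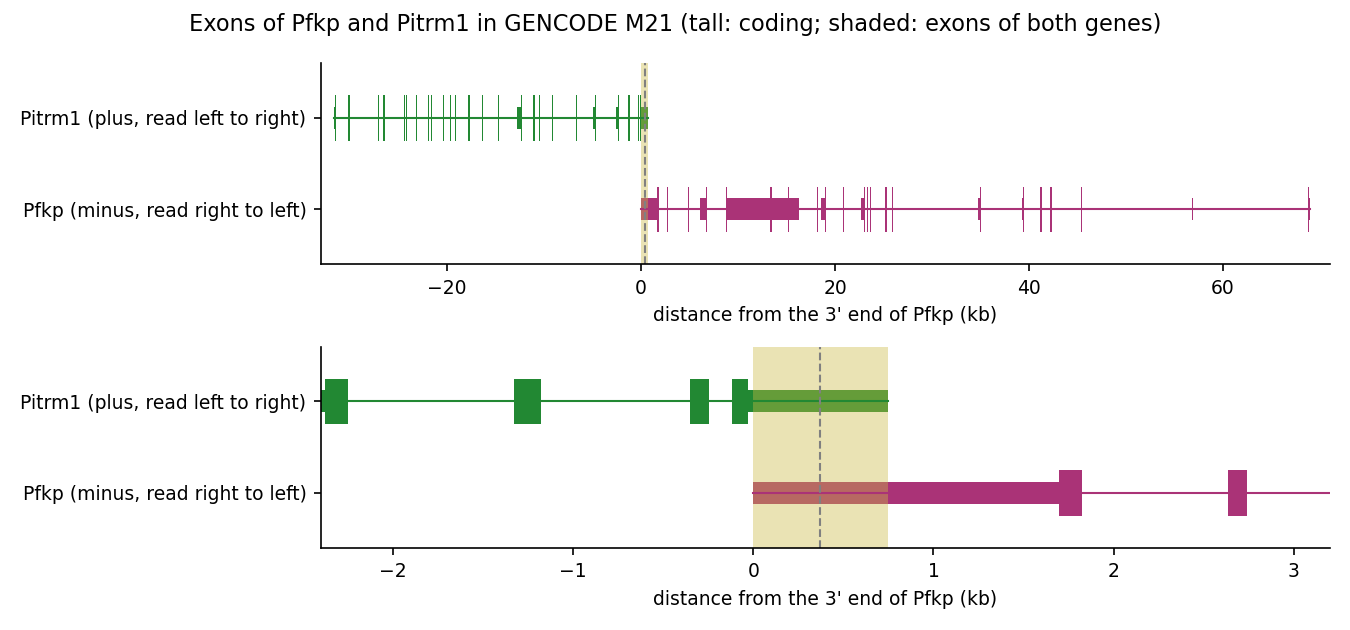
Exons of Pitrm1 and Pfkp in GENCODE M21 along the distance from the 3′ end of Pfkp in kb, for both whole genes (top) and around the overlap (bottom). Tall boxes are coding, shading marks the 748 bp in exons of both genes, and the dashed line marks the end of Pitrm1 in the deposited table, 372 bp into Pfkp; no coding box reaches the shading.

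The stretches before the starts of Pfkp and Pitrm1, the 2 overlapping genes, are shown. They are the 250 bases ahead of each annotated start, from RefSeq (GRCm38.p6), 5′ to 3′ on the strand of the gene, with GC boxes in capitals (GGGCGG or its complement CCGCCC, the site that Sp1-type factors recognise). The Pfkp window is chr13:6648772-6649021 on the minus strand and the Pitrm1 window chr13:6547907-6548156 on the plus strand.
Pfkp: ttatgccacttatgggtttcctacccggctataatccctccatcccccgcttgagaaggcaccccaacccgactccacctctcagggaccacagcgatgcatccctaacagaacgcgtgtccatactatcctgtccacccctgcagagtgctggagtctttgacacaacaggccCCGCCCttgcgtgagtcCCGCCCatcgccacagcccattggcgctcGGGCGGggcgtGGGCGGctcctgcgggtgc
Pitrm1: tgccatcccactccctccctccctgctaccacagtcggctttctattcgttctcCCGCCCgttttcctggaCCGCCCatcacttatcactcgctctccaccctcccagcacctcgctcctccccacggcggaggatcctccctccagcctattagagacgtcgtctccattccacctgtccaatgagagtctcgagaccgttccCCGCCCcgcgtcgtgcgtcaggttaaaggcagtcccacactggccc

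The Pfkp window held 4 GC boxes and the Pitrm1 window 3, with a GC content of 62.8% and 62%. GC boxes were not limited to these: 6 of the 10 genes had at least 1, Hk2, Aldoa, Pgk1 and Ldha being the others, in 7 of their 17 windows. At least 1 GC box stood in 32.7% of the 32851 windows of the same length in the RefSeq table. The core ACGTG of the hypoxia response element, searched on both strands, was in neither window. It was in 7 of the 17 windows of the 10 genes and in 16.6% of all windows. Those 7 belong to 5 genes, some with several annotated starts (Pfkm, Hk2, Aldoa, Pgk1 and Ldha). Up to 5 matches, counted on each strand, stood in 1 window of Ldha. The E-box CACGTG contains ACGTG on both strands, so each E-box counted as a match on each strand. It was ahead of a start of Pfkm and of Ldha, with 2 in that Ldha window, and in 6.02% of all windows. The TATA box TATAAA was ahead of none of their 17 starts and in 12.4% of all windows. These matches are letters in a window and not measured binding.

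Pfkp held by far the most counts of the 10 genes. In DMSO it had 442, 445 and 428 reads (replicates 1 to 3), and under the compound 1014, 1003 and 1062. Scaled by TMM, these were 767, 736 and 411 CPM in DMSO and 2283, 2122 and 2203 CPM with the compound. The groups did not overlap, and the lowest compound library stood 2.77-fold above the highest DMSO library. In bulk RNA like this, a change in the cells present and a change in RNA per cell cannot be told apart.

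The group means were 638 ± 197 and 2203 ± 80.4 CPM (SD, n = 3 each). In the fit across all genes with edgeR's quasi-likelihood model, the log2 change was 1.79 ± 0.20 (SE), or 3.47-fold. The authors' normalised counts gave the same picture, with 439, 423 and 227 in DMSO and 1245, 1191 and 1252 with the compound. The authors' deposited table lists a log2 fold change of 1.68 ± 0.26 (their SE) for Pfkp. With DESeq2 run here it was 1.81 ± 0.22 (SE).

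DMSO replicate 3 was the low one. Its raw count was close to those of its group, but its total was the highest of all, and its log2 CPM lay 0.87 below that of the mean of the other DMSO libraries. Over the 1098 tested genes whose counts averaged 50 or more, the median of this value was -0.07 and the lowest 5% were under -1.03. The spread of Pfkp in DMSO, a coefficient of variation of 30.9%, was wider than that of 85.5% of these genes, whose median was 16.2%. With the compound it was 3.65%, narrower than in all but 10.0% of them. Without DMSO replicate 3 the log2 change of Pfkp was 1.54 ± 0.09 (SE), and without DMSO replicate 1 it was 1.92 ± 0.22, the lowest and the highest of the settings run.

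**Figure D2:**
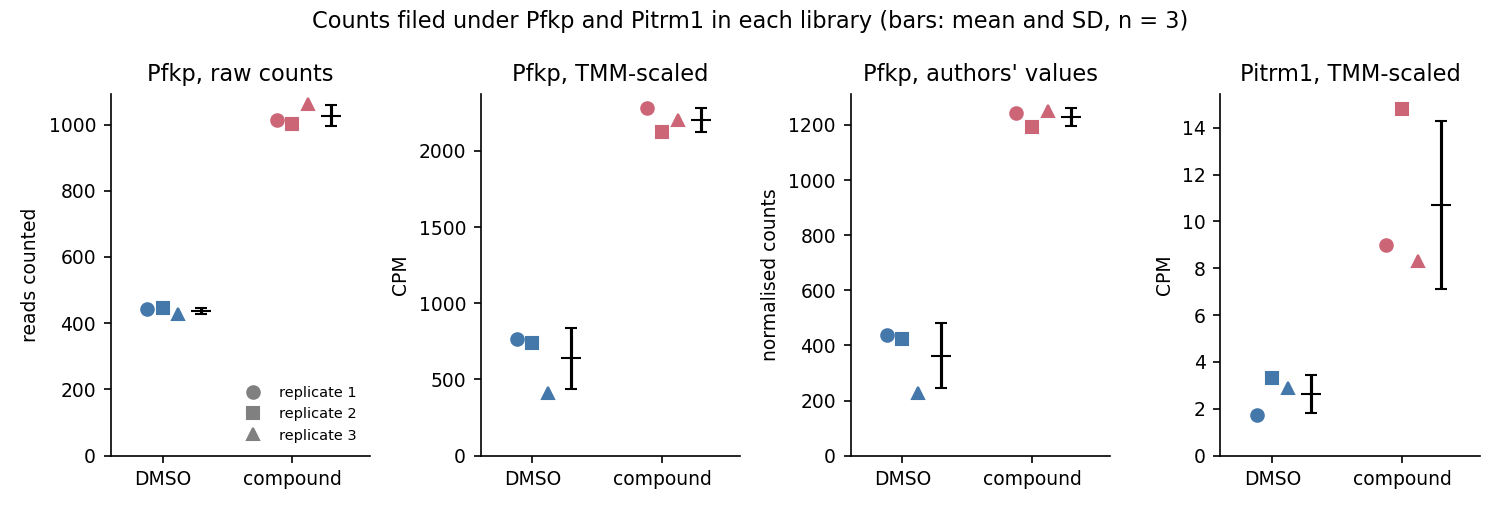
Reads counted under Pfkp, the same in TMM-scaled CPM, the authors' normalised counts of Pfkp, and Pitrm1 in CPM, for each of 3 DMSO and 3 compound libraries (symbols mark the replicate number, bars the mean and SD). On each scale the compound libraries lie above all DMSO libraries, and DMSO replicate 3 is close to its group in raw reads of Pfkp and well below it after scaling (411 CPM against 736 and 767).

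Of the 10 genes, 4 had enough counts to enter the fit: Pfkp, Pfkl, Pfkm and Gapdh. Over all 2440 tested genes, 7.5% were called higher and 10.5% lower at an adjusted p under 0.05. As Pfkp was taken up for its rise, no call is given for these 4. By mean count (732) Pfkp ranked 140 among the tested genes, whose median mean count was 41.3. By log2 change it ranked 26 from the top over all tested genes, and 8 over those averaging 50 reads or more.

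**Figure D3:**
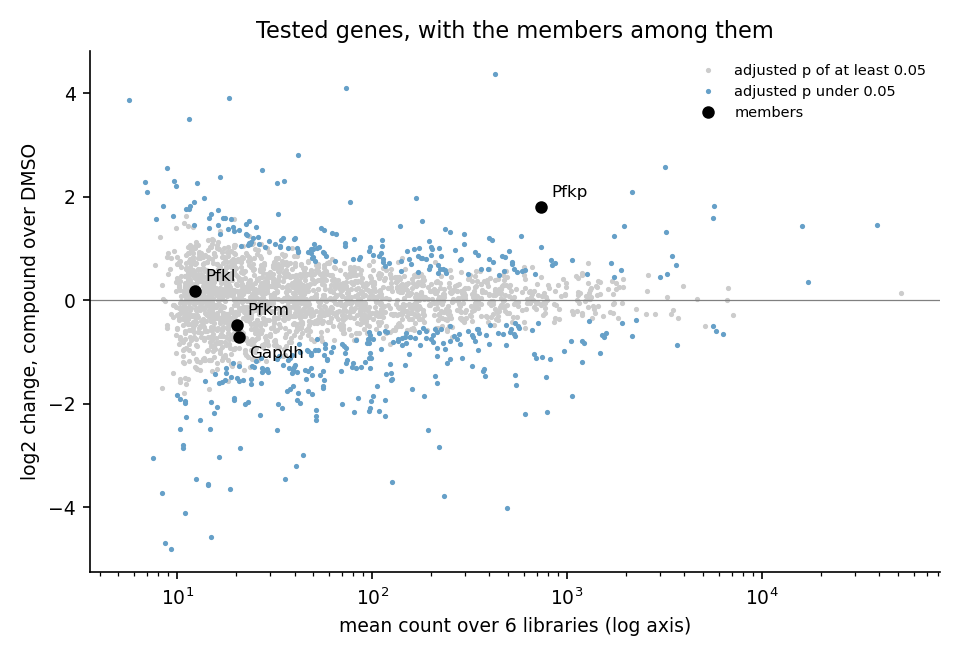
Log2 change of compound over DMSO against the mean count over 6 libraries (log axis) for 2440 tested genes, blue where the adjusted p was under 0.05, with Pfkp, Pfkl, Pfkm and Gapdh in black. Pfkp stands at a mean count of 732 and a log2 change of 1.79, while the other 3 members lie among the low-count genes with mean counts of 12.3 to 20.7.

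Pitrm1, on the opposite strand of the same stretch, was almost empty in this table. It had 1, 2 and 3 reads in DMSO and 4, 7 and 4 with the compound, or 1.73, 3.31 and 2.88 CPM against 9.005, 14.8 and 8.30 CPM. The compound libraries were all above the DMSO libraries. Summed over each group, 6 against 15 reads gave a ratio of compound to DMSO of 3.97 (95% exact Clopper-Pearson interval 1.46 to 12.5, counting error only). Fitted without a filter on low counts, its log2 change was 1.82 ± 0.96 (SE), and 1.51 to 1.96 with any 1 library left out. The authors' deposited table gives 1.34 ± 0.56 (their SE). With DESeq2 run here, again without a filter, the log2 change was 1.99 ± 1.18 (SE), so the deposited value may be on an unlike scale.

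The counts filed under the 2 names were far apart, which does not give the levels of the 2 transcripts while the strand setting is unknown. Mean counts were 732 under Pfkp and 3.50 under Pitrm1, a ratio of 209. Per kb of annotated exon the mean counts were 54.6 and 0.731. Pitrm1 reads were 0.226% to 0.701% of Pfkp reads in DMSO and 0.377% to 0.698% with the compound, so the ranges overlapped. Replacing both rows by their sum left the log2 change at 1.80 ± 0.20 (SE).

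The other phosphofructokinase genes had low counts, and their difference from Pfkp was not tested. Pfkm, the muscle subunit gene, had 22, 16 and 47 reads in DMSO and 12, 10 and 15 with the compound. In CPM this was 38.2, 26.5 and 45.1 against 27.0, 21.2 and 31.1, and the groups overlapped. Its log2 change was -0.48 ± 0.39 (SE). Exons of Pfkm share 18 noncoding bp with Senp1 on the opposite strand, and Senp1, a SUMO protease gene, had 1 to 6 reads per library. Gm26513, on the strand of Pfkm, shares 341 bp of its exons and is not in the table.

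Pfkl, the liver subunit gene, has no overlapping gene in GENCODE M21. It had 14, 12 and 17 reads in DMSO and 16, 8 and 7 with the compound, or 24.3, 19.9 and 16.3 against 36.0, 16.9 and 14.5 CPM. Compound replicate 1 was the highest library and the other 2 compound libraries lay among or below the DMSO values. The log2 change was 0.17 ± 0.48 (SE). It changed sign, to -0.32, without compound replicate 1, and was -0.04 with total-count scaling.

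Pfkp thus took most of the counts filed under phosphofructokinase genes in every library. Its part of the raw reads, not corrected for exon length, was 92.5%, 94.1% and 87.0% in DMSO. With the compound it was 97.3%, 98.2% and 98.0%, with no overlap. Pfkl and Pfkm together held only 18 to 64 reads per library. The higher share thus restates the rise for which Pfkp was taken up, and nothing further is read from it. The summed level of Pfkl and Pfkm was 56.7 ± 9.02 CPM in DMSO and 48.9 ± 12.8 CPM with the compound (SD, n = 3 each), a difference within the spread of the samples.

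Among the genes of the other steps, hexokinase 1 (Hk1), which is bound to the outer mitochondrial membrane, had 10, 10 and 24 reads in DMSO and 4, 2 and 7 with the compound. In CPM these were 17.3, 16.5 and 23.0 against 9.005, 4.23 and 14.5, and all compound libraries were below all DMSO libraries. Without a filter its log2 change was -1.13 ± 0.64 (SE), from -0.80 without compound replicate 2 to -1.65 without compound replicate 3. Its exons overlap 157 bp of Hk1os, a noncoding antisense gene that the table does not list. Hk2, the insulin-responsive hexokinase gene of muscle, had 1 read in DMSO and 2 with the compound, too few for a fold.

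Aldoa, the aldolase gene of muscle, had 9, 14 and 7 reads in DMSO and 8, 0 and 7 with the compound, or 6.72 to 23.2 against 0 to 18.0 CPM. The groups overlapped. Its log2 change of -0.52 ± 0.68 (SE, no filter) became 0.06 without compound replicate 2. GENCODE M21 gives the name Aldoa to a neighbouring gene identifier as well, which is not in the table. Its exons share 25 bp with Fam57b, which had no read in any library.

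Gapdh, which oxidises glyceraldehyde 3-phosphate and is a common reference gene, had 24, 22 and 44 reads in DMSO and 18, 2 and 14 with the compound. In CPM this was 41.6, 36.4 and 42.2 against 40.5, 4.23 and 29.0. The DMSO libraries lay close together, and compound replicate 2 stood far below all others. The log2 change of -0.71 ± 0.50 (SE) was -0.22 without that library and -1.25 without compound replicate 1. Its end shares 68 bp with Iffo1 in GENCODE M21 but, by the start in the deposited table (125161853 on chromosome 6), stops short of it; Iffo1 had 4 to 18 reads per library and stood at 0.34 ± 0.56 on the log2 scale (SE; edgeR adjusted p = 0.723). The mouse genome holds many processed copies of Gapdh, so reads that fit several places could have been lost, which was not tested. The Gapdh value is uncertain.

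The genes at the end of the pathway were close to empty. Pgk1, phosphoglycerate kinase, had no read in 5 libraries and 1 in compound replicate 3. Ldha, the lactate dehydrogenase subunit of muscle, had 3, 4 and 1 reads in DMSO and none with the compound. Setting 3 counts, the most that 0 over the compound group allows, against the 3.60 CPM pooled over DMSO gave a 1.68-fold difference. That value leaves out the counting error of the 8 DMSO reads, so the fold could be smaller. Pgk1 and Ldha both encode transcripts that are plentiful in dividing cells. The counts under these names thus do not follow the usual abundance of glycolytic transcripts.

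**Figure D4:**
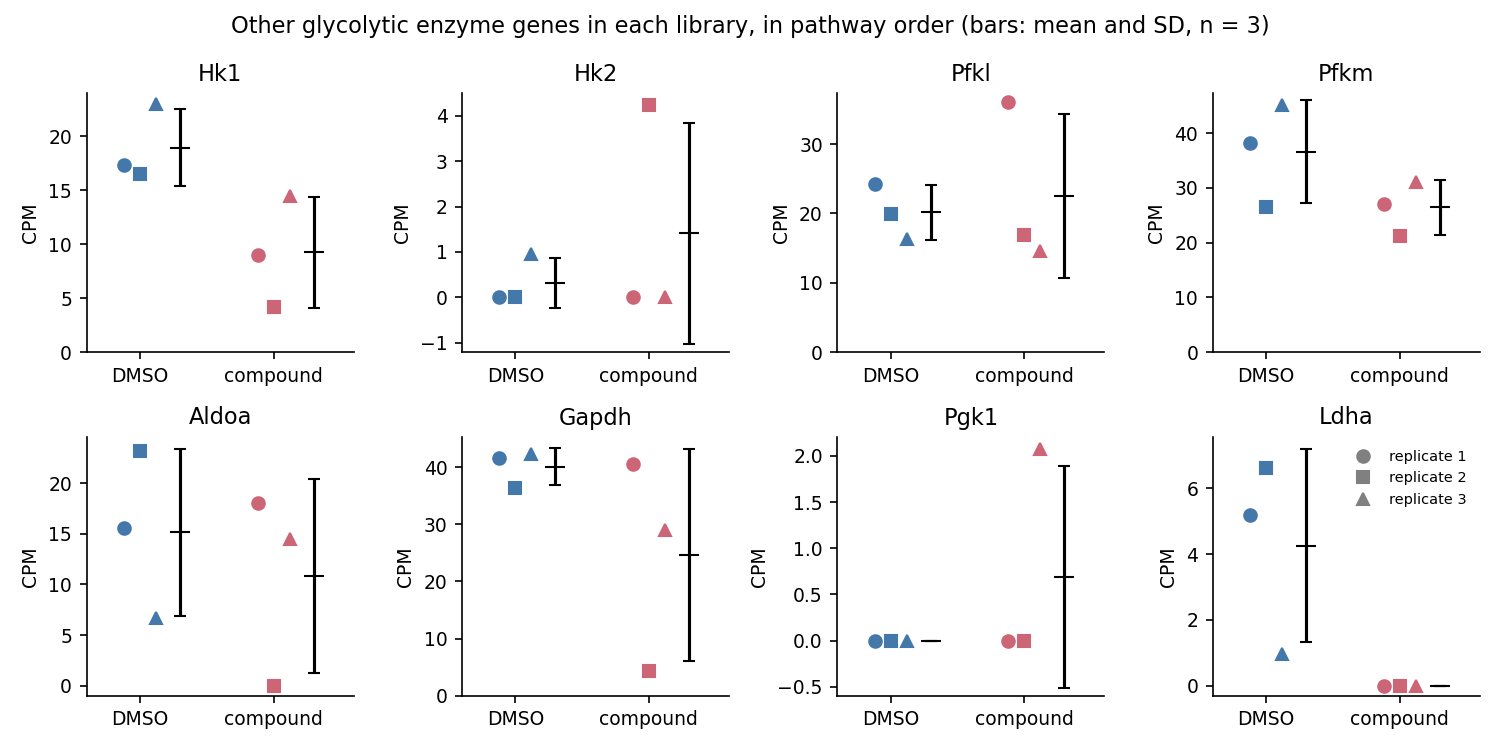
TMM-scaled CPM of 8 glycolytic enzyme genes in each of 3 DMSO and 3 compound libraries, in pathway order, with the axis of each panel set to its own range (symbols mark the replicate number, bars the mean and SD, which for nearly empty genes reach below 0). Hk1 and Ldha are lower in every compound library, the other genes overlap, and compound replicate 2 is the low library for Gapdh (4.23 CPM) and Aldoa (0 CPM).

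Added up, the 8 glycolytic genes other than Pfkp gave 142, 129 and 135 CPM in DMSO and 131, 50.8 and 106 CPM with the compound. The means were 136 ± 6.58 and 95.7 ± 40.8 CPM (SD, n = 3 each), and the groups overlapped. Without compound replicate 2 the compound mean was 118 CPM. In all, 4 of the 10 genes had groups that did not overlap. Pfkp and Pitrm1 were higher with the compound, and Hk1 and Ldha lower. Groups did not overlap in 14.7% of the 12548 genes with a count and in 36.4% of the 2440 tested genes. As Pfkp was taken up for its rise, nothing is read from this count. In 6.92% of the 12548 genes every compound library was above every DMSO library.

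Counts filed under the names are compared per kb of annotated exon of the named gene. While the strand setting is unknown, this order is one of filed counts and not of transcript levels. In DMSO the order of mean CPM per kb was Pfkp (47.6), Pfkm (11.0), Gapdh (9.70), Aldoa (5.21), Pfkl (3.02), Hk1 (2.22), Ldha (1.29), Pitrm1 (0.552), Hk2 (0.0536) and Pgk1 (0). Pfkp, at 30.7 to 57.2 over the DMSO libraries, was clear of Pfkm at 7.93 to 13.5. Pfkm overlapped Gapdh (8.81 to 10.2) and, narrowly, Aldoa (2.31 to 7.96). Aldoa overlapped Pfkl (2.44 to 3.64) and Hk1 (1.94 to 2.70), and these overlapped each other. Ldha (0.290 to 2.00) overlapped Hk1, and Pitrm1 (0.362 to 0.691) lay within the range of Ldha. With the compound Pfkp stood at 164 CPM per kb, followed by Pfkm (7.91), Gapdh (5.95), Aldoa (3.73) and Pfkl (3.37). Gapdh, at 1.02 to 9.80, overlapped the other 3. Pfkm (6.33 to 9.32) lay above the highest Aldoa (6.19) and Pfkl (5.396) values, and Aldoa and Pfkl overlapped. Pitrm1 (2.24) then came before Hk1 (1.08), with ranges of 1.73 to 3.09 and 0.496 to 1.70 that came close without overlapping. The exon lengths are unions over all transcripts of GENCODE M21, and that of Pfkp, 13401 bp, includes retained introns.

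Pitrm1 was chosen for its overlap with Pfkp, so the 748 bp they share are set by that choice. Of the others, Hk1 shares 157 bp, Gapdh 68 bp, Aldoa 25 bp, Pfkm 18 bp, and Pfkl, Hk2, Pgk1 and Ldha none, and all of these had mean counts of 0.167 to 20.7. Pfkp had 732 and Pitrm1 3.50.

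The wider glycolysis list held 21 further genes, of which 20 were in the table and 7 had no read in any library. Of the 5 tested, 1 rose and none fell (7.5% and 10.5% of all tested genes), and the median log2 change was 0.54, beside 0.02 over all tested genes. Pgam2, the muscle phosphoglycerate mutase, was the one that rose. It had 54, 46 and 101 reads in DMSO and 92, 95 and 98 with the compound, or 88.9 ± 11.2 against 204 ± 3.09 CPM (SD, n = 3 each), without overlap. The log2 difference was 1.19 ± 0.21 (SE; edgeR adjusted p = 0.00104), between 0.97 and 1.26 in every setting run, and no opposite-strand exon is annotated for it.

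The other tested glycolysis genes did not pass. Tpi1, triosephosphate isomerase, had a log2 change of 0.72 ± 0.46 (SE) and Eno2, the neuronal enolase, of 0.54 ± 0.55. Gapdhs, the sperm form of Gapdh, stood at 0.02 ± 0.20 and Ldhd, D-lactate dehydrogenase, at -0.05 ± 0.18, both with SE. Ldhd had the most counts of these, a mean of 293.5, and shares 2246 bp of its exons with Znrf1 on the opposite strand. Gapdhs shares 162 bp with Tmem147os and Tpi1 34 bp with Spsb2, also on the opposite strand. Pkm, pyruvate kinase, had only 3 to 9 reads per library.

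Of 24 genes of glucose supply and its control, 23 were in the table and 4 were tested; 1 rose and none fell, where 7.5% of all tested genes were higher and 10.5% lower. The median log2 change was 0.71, beside 0.02 over all tested genes. Slc16a1, a lactate and pyruvate transporter, rose from 9.54 ± 3.98 to 33.4 ± 10.8 CPM (SD, n = 3 each), with 7, 3 and 12 reads against 13, 12 and 22. The log2 difference was 1.76 ± 0.49 (SE; edgeR adjusted p = 0.0216). That call was lost with no filter on low counts (adjusted p = 0.0651), and on leaving out DMSO replicate 2 (0.103) or, of the compound group, replicate 1 (0.0528) or replicate 3 (0.130). Slc16a3, the lactate exporter, had a log2 change of 0.17 ± 0.28 (SE), Pfkfb2, which makes the phosphofructokinase activator fructose 2,6-bisphosphate, of 0.51 ± 0.29, and Gys1, glycogen synthase of muscle, of 0.92 ± 0.55; none passed. Gys1 shares 310 bp of its exons with Ruvbl2 and Pfkfb2 154 bp with Yod1, both on the opposite strand. None of the 7 gluconeogenesis genes had enough counts to test.

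Among mitochondrial peptidases, the enzyme class of Pitrm1, few had enough reads. Of 16 in the table, 4 were tested with edgeR, and neither at an unadjusted p under 0.05 nor with DESeq2 was any called (0 in each case). With 7.5% of all tested genes higher and 10.5% lower, 0 of 4 is near the background. Their median log2 change was 0.15, beside 0.02 over all tested genes. Pmpca, a subunit of the peptidase that removes targeting peptides, had a log2 change of 0.33 ± 0.22 (SE). Htra2, a protease of the intermembrane space, stood at -0.09 ± 0.16 with a mean count of 737, and the matrix protease gene Lonp1 at 0.19 ± 0.36. Immp1l, of the inner membrane peptidase, stood at 0.10 ± 0.27. Pmpca shares 874 bp of its exons with Inpp5e, and Htra2 753 bp with Aup1 and 535 bp with Loxl3, all on the opposite strand.

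**Figure D5:**
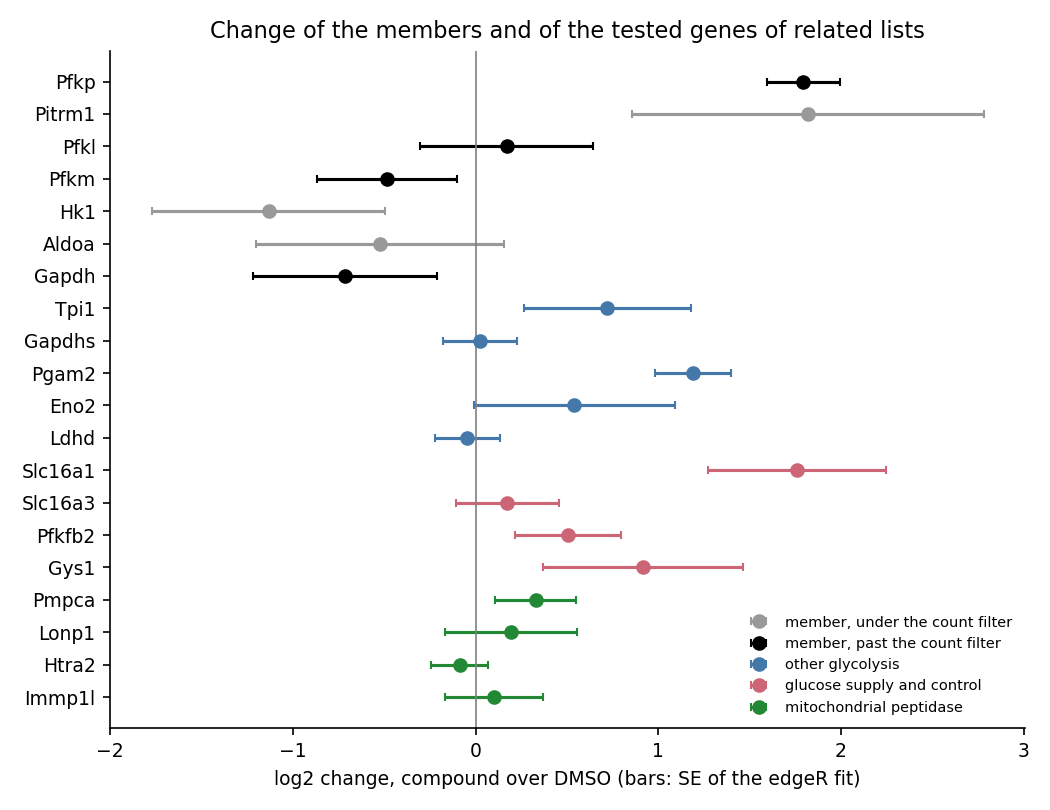
Log2 change of compound over DMSO with its SE from the edgeR fits, for the 7 members with enough reads for a fold (black past the count filter, grey under it and fitted with no filter) and for the tested genes of 3 related lists. Pfkp (1.79) has a short error bar and Pitrm1 (1.82) a long one; of the other lists, Pgam2 (1.19) and Slc16a1 (1.76) passed the threshold.

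With genes of a Gm or Rik name left out, those that followed Pfkp most closely over the 6 libraries were Fastk, mt-Nd6, Pltp, Cntd1 and Batf2. Their Pearson r of log2 CPM with Pfkp was 0.989 to 0.998. Searched were 1097 other tested genes averaging 50 reads or more, a number that still includes the names left out. The 6 points share the 2 groups and the low DMSO replicate 3, so this is a description of the libraries. Fastk had the highest r with a log2 change of only 0.12, from 2314 CPM in DMSO replicate 3 to 2582 CPM in compound replicate 1. In mt-Nd6, the mitochondrial complex I gene, DMSO replicate 3 was low too, at 26670 CPM against 43936 and 47442 CPM in the other DMSO libraries.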

How the data were processed

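RNA of 3 DMSO and 3 compound samples of C2C12 cells was measured by poly-A RNA-seq. The submitters' processing notes name STAR 2.3.0e, HTSeq 0.6.0 and mm10. The authors deposited 1 table of 24725 rows, in which 930 repeated gene identifiers had equal counts and were used once. Raw read counts, as deposited by the authors, entered every fit. The normalised signal deposited by the authors is their count after scaling of each library by a size factor. The deposited table also holds log2 fold changes, a test score and p-values, per the file headers; the fold changes are printed only where attributed.

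Counts were fitted with edgeR 4.0.16 (R 4.3.3): TMM, filterByExpr, quasi-likelihood F test, two-sided, Benjamini-Hochberg adjustment at 0.05. The SE was taken as the size of the log2 change over the root of F. Members under the filter were fitted with no filter. Exons came from GENCODE M21 (mm10), which holds 96.05% of the identifiers. Steps were checked on simulated counts. Tables were made in Python 3.11.15 with pandas 2.3.3, intervals with scipy 1.17.1, figures with matplotlib 3.10.9. Alternatives were other scalings, DESeq2 1.42.0, filters, a replicate block and each library left out.

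Members and lists were chosen with earlier results of these data known. Named were all members, their opposite-strand partners, the tested genes of the lists and the 5 genes most like Pfkp without a Gm or Rik name. Intervals cover counting error only, and the limit for a count of 0 (3 counts) covers that of the group at 0 alone. The labels do not state separate cultures, so SDs and p-values measure the spread between samples, which may be technical. Totals cover the listed genes and are not the sequencing depth; 1 read was worth about 1 to 2 CPM, which limits precision for genes with few reads.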

Additional observations from a re-analysis of the deposited data

How the results depend on the processing

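The log2 change of Pfkp stayed between 1.54 and 1.92 in the settings run, with 1.596 under total-count scaling, 1.81 with DESeq2 and 1.70 with no filter. Same-numbered libraries showed no shared deviation (correlation of deviations -0.01 to 0.02 over 2440 genes, against -0.05 to 0.04 for libraries of different number). This cannot show whether same-numbered samples were handled together. With a replicate block Pfkp was at 1.84, and 197 genes were called higher and 245 lower, against 183 and 255 without it. Total-count scaling moved the median log2 change of all tested genes to -0.20, from 0.02; it called 109 higher and 400 lower, 21.4% of calls higher in place of 41.8%. At an adjusted p of 0.01, 80 were higher and 128 lower. With 1 library left out, 93 to 259 were higher and 143 to 359 lower: of the compound group, leaving out replicate 1 gave 93 and 143, replicate 2 103 and 151, and replicate 3 109 higher; leaving out DMSO replicate 2 gave 114 higher. Of the 2 list genes called, Pgam2 passed in all 13 settings run for it, and Slc16a1 lost its call in 4 of 12, with the same sign throughout. The other genes had no call to lose, and members were given no test. Low counts limit Pitrm1, Hk1, Hk2, Aldoa, Pgk1 and Ldha, which all stayed under the count filter. The differences of Hk2 and Pgk1 were within reach of single reads.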
